A study of Gallus gallus with 6 samples.

Results

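The MAP kinase cascade genes and the dual-specificity phosphatase genes of chicken monoblasts were compared between cells carrying a mutated v-Myb, designated deltaP, and cells carrying wild type v-Myb. A gene belonged to the family when its probe set had a single annotated symbol made of MAPK, MAP2K, MAP3K, MAP4K or DUSP and a digit, or a symbol starting with MAPKAPK. Each gene was represented by its probe set with the highest mean over the 6 arrays. The rule found 61 genes among the 13009 genes with such a probe set. Of these, 34 encode kinases and 21 carry a plain DUSP number. The other 6 have further letters in the symbol, such as MAPK8IP3.

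The 3 deltaP and 3 wild type v-Myb samples were labelled as biological replicates of primary monoblasts from Brown Leghorn birds, put into culture after infection. Monoblasts are immature precursors of monocytes and macrophages, and v-Myb is a viral form of the transcription factor c-Myb that blocks their maturation. All 6 samples carry a v-Myb, so no untransformed cells serve as a baseline. The labels give neither the residues that deltaP changes nor whether each replicate came from its own bird, so a p-value here measures the spread between these samples only.

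MAP kinases are the last tier of a kinase relay. A MAP4K can switch on a MAP3K, which phosphorylates a MAP2K, which in turn phosphorylates a threonine and a tyrosine in the activation loop of the MAP kinase. The ERK branch carries growth signals, including those of the CSF1 receptor in macrophages, while the JNK and p38 branches respond to stress, cytokines and Toll-like receptors. Dual-specificity phosphatases remove both phosphates, and several of their genes are themselves switched on by the kinases they silence.

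In the deposited table, the mean of the same-numbered deltaP and wild type values was equal over the 3 replicate numbers for every probe set, within a tolerance of 0.001 log2 units. The data therefore hold 3 differences per gene, called pairs 1, 2 and 3, and a single deposited value is not the measured level of that array. Errors below are the SD of the 3 differences. The macrophage markers matched the label: 9 of 11 passed the filter, including CSF1R and SPI1, and their summed level lay between 16.36 and 16.55 log2 units on deltaP arrays and between 16.54 and 16.74 on wild type arrays. MRC1 and MARCO did not pass. Markers of other cells were mostly below the filter, which 1 of 8 fibroblast genes, 0 of 1 thrombocyte genes, 2 of 8 lymphocyte genes, 2 of 2 erythroid genes, 2 of 3 heterophil granule genes and 1 of 2 others passed. The summed heterophil granule level lay between 14.36 and 14.92 on deltaP arrays and between 15.17 and 15.72 on wild type arrays. CATH1 carried this sum, with pair differences of -0.61, -1.36 and -0.27, while LECT2, the other gene of that list that passed, had 2.28, -1.39 and 0.27. Whether CATH1 and LECT2 were expressed by the monoblasts themselves or by heterophils was not tested. The part of other cells in the results below was not tested either. The spiked-in poly-A control RNAs had median differences of -0.09, -0.06 and 0.68 log2 units in pairs 1, 2 and 3. The hybridization controls had 0.04, -0.18 and 0.5. In pair 3 the actin control probe sets lay between 0.52 and 0.83 and the GAPDH ones between 0.14 and 0.3. Precision is limited throughout by how few arrays there are.

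Transcripts of 41 of the 61 genes were bright enough to test, with a log2 value over 4 on at least 3 of the 6 arrays. No family member passed the threshold of 0.05 for the adjusted p over all 7753 tested genes when limma was fitted with a block for the replicate number. The same fit called 0.0% of all genes, and the lowest adjusted p of a member was 0.435. At an unadjusted p under 0.05 there were 3 members, MAP2K6 and DUSP5 lower and MAP2K2 higher in deltaP. They made up 7.32% of the tested members, against 9.92% of all tested genes (6.02% lower and 3.9% higher in deltaP). MAP2K6 among them passed the filter only through its wild type values. Without the block 8.23% of all genes passed the adjusted threshold, and still 0 members did.

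For most of the family the intervals put a limit on the difference. The 95% interval of the deltaP to wild type ratio lay within 2-fold in either direction for 32 of 41 tested members (78%), against 84% of all genes. It did so for 24 of 26 kinases and for 6 of 12 DUSP genes. By the mean of the pairs, 27 members (65.9%) were lower in deltaP and 14 higher, against 48.7% lower among all genes. The median log2 difference was -0.11 for the members and 0.01 for all genes. Without pair 3 only 18 of the 41 were lower and the median was 0.03.

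**Figure D1:**
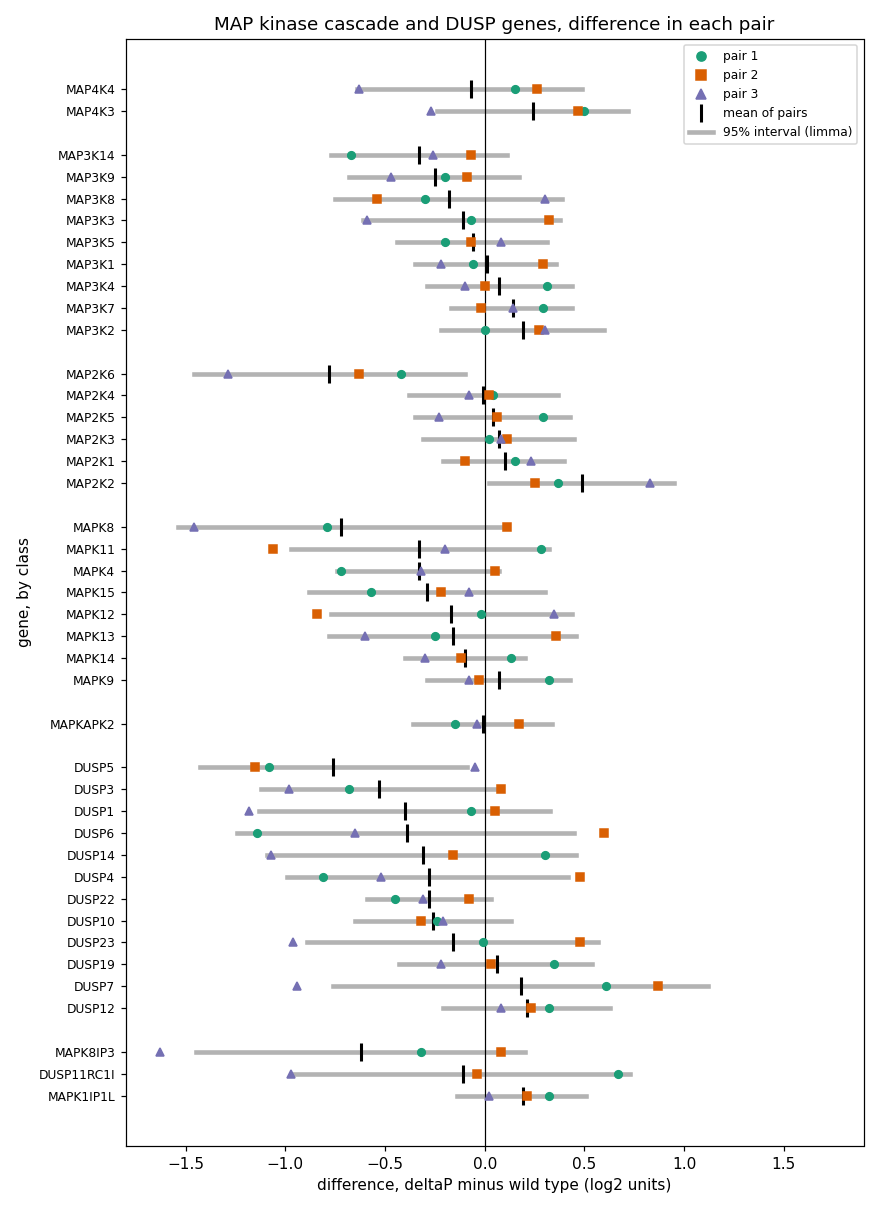
Difference of deltaP minus wild type (log2 units, horizontal axis) for the 41 tested members, grouped by class from the top of the cascade to the phosphatases. Coloured symbols are pairs 1, 2 and 3, the black tick is their mean and the grey bar the 95% interval in limma with the block. The interval leaves out 0 for MAP2K6, MAP2K2 and DUSP5 alone.

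Among the 6 MAP2K genes, the middle tier, 4 were higher and 2 lower in deltaP by their mean, and none passed the adjusted threshold. MAP2K6, an activator of p38 kinases, had deposited log2 values of 3.97, 3.87 and 3.53 on the deltaP arrays and 4.39, 4.5 and 4.83 on the wild type arrays. The groups did not overlap, which the equal pair means force for any gene with 3 differences of one sign. Among all genes 15.8% were lower in every pair. The mean difference was -0.78 ± 0.46 log2 units (SD, n = 3 pairs), a 1.72-fold lower level in deltaP (limma adjusted p = 0.435). MAP2K6 was dim: only its 3 wild type values were over the filter value of 4, so it entered the test through the group in which it was higher.

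MAP2K2, the ERK activator MEK2, differed the other way. Its log2 values were 8.02, 7.95 and 8.24 on the deltaP arrays and 7.64, 7.7 and 7.41 on the wild type arrays. It was 1.4-fold higher in deltaP, with pair differences of 0.37, 0.25 and 0.83 (limma adjusted p = 0.487). By its design the MAP2K2 probe set may detect several related transcripts. The brightest probe sets of 7 tested members, MAP2K2 included, were of this design. A difference of one sign in all 3 pairs was found in 7 members that were lower (17.1%) and 4 that were higher (9.76%). Among all genes 15.8% were lower and 17.5% higher in every pair.

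By their brightest probe sets, the other MAP2K genes had differences close to 0. MAP2K1, the ERK activator MEK1, had a log2 difference of 0.1 ± 0.17 (SD, n = 3 pairs), with a 95% interval from -0.21 to 0.4. The p38 activator MAP2K3 was at 0.07 ± 0.04, MAP2K4, which activates JNK and p38, at -0.01 ± 0.06, and MAP2K5, the activator of ERK5, at 0.04 ± 0.26. All 4 intervals lay within 2-fold. Another MAP2K3 probe set, nearly as bright, was at -0.25, 0.33 and -0.42 in the pairs. Dimmer tested probe sets of MAP2K5 had mean differences of 0.3 and -0.46. MAP2K3 and MAP2K6 both act on p38, but their difference from each other was not tested.

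**Figure D2:**
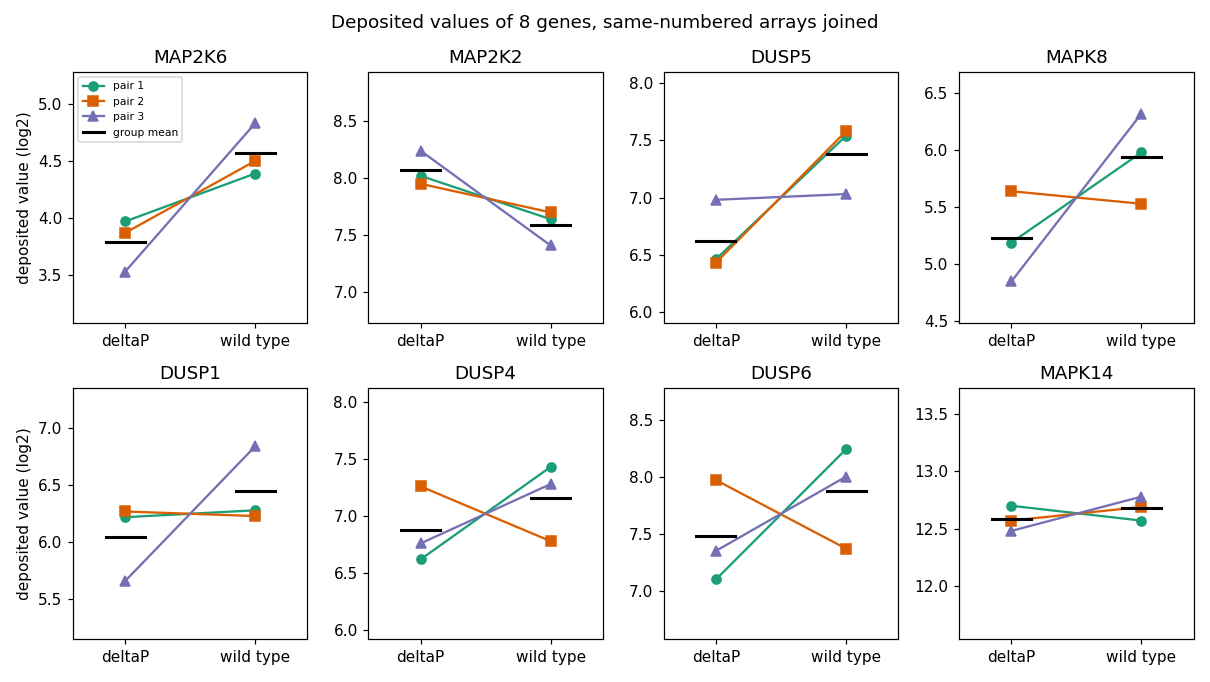
Deposited log2 values of 8 members on the deltaP arrays (left) and wild type arrays (right), with same-numbered arrays joined and black bars for the group means. All panels span 2.2 log2 units. MAP2K6 and DUSP5 were lower on every deltaP array than on its partner, MAP2K2 was higher, and DUSP4 and DUSP6 crossed in pair 2.

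At the end of the kinase relay, 7 of 8 tested MAPK genes were lower in deltaP by their mean, with a class median of -0.23 log2 units. None had an unadjusted p under 0.05. MAPK8, which encodes the stress kinase JNK1, was the lowest of them. Its log2 values were 5.19, 5.64 and 4.85 on the deltaP arrays and 5.98, 5.53 and 6.32 on the wild type arrays, which overlap. The pair differences of -0.79, 0.11 and -1.46 give a mean of -0.72 ± 0.79 (limma adjusted p = 0.558). A second MAPK8 probe set ran alike, with -0.86, 0.17 and -0.77. Its relative MAPK9, encoding JNK2, was at 0.07 ± 0.22, and MAPK10, encoding JNK3, did not pass the filter.

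MAPK4, for which the gene table gives MAPK6 as a synonym, encodes an atypical MAP kinase outside the classical relay. Its values were 11.31, 11.7 and 11.52 on the deltaP arrays and 12.04, 11.65 and 11.84 on the wild type arrays. Pairs 1 and 3 were lower in deltaP and pair 2 was not, at 0.05. The mean log2 differences of its 3 tested probe sets were -0.33, -0.44 and -0.5, and the last of these had an unadjusted p under 0.05 (limma adjusted p = 0.529 over all probe sets).

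The p38 kinases did not share a pattern over the pairs. MAPK14, or p38 alpha, the p38 form best known from macrophage cytokine responses, had values of 12.7, 12.57 and 12.48 on the deltaP arrays and 12.57, 12.69 and 12.78 on the wild type arrays. Its log2 difference of -0.1 ± 0.22 had an interval from -0.4 to 0.2. A dimmer MAPK14 probe set was at 0.18, so not even the sign was settled.

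MAPK11 and MAPK12, encoding p38 beta and p38 gamma, are next to each other in the gene table, and both were lower in pair 2. MAPK11 had pair differences of 0.28, -1.06 and -0.2, and MAPK12 had -0.02, -0.84 and 0.35. By their design both probe sets may detect more than one related transcript, so the values of these neighbours may not be separate measurements. A MAPK12 probe set without that design had 0, -0.89 and 0.4 in the pairs. Another tested MAPK11 probe set, again of the shared design, had 0.26, -0.93 and 0.66. MAPK13, encoding p38 delta, lies next to MAPK14 and had -0.25, 0.36 and -0.6. MAPK15, an atypical ERK relative, was dim and had -0.57, -0.22 and -0.08 (limma adjusted p = 0.736). Downstream of p38, the kinase gene MAPKAPK2 was at -0.01 ± 0.16, while MAPKAPK3 and MAPKAPK5 did not pass the filter.

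In the upper tiers the differences were small. All 9 tested MAP3K genes and both tested MAP4K genes had 95% intervals within 2-fold, and their median log2 differences were -0.06 and 0.08. The largest MAP3K difference was that of MAP3K14, the NF-kB-inducing kinase of the non-canonical pathway, with -0.67, -0.07 and -0.26 in the pairs and a mean of -0.33 ± 0.31 (limma adjusted p = 0.594). A second MAP3K14 probe set was at -0.82, 0.34 and 0.15. MAP3K9, a mixed-lineage kinase upstream of JNK, was at -0.25 ± 0.19 and lower in all pairs. A dimmer tested MAP3K9 probe set had a mean of 0.06.

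Several kinases known from innate immune signalling were in this tier. MAP3K8, or TPL2, which links Toll-like receptors to ERK in mammalian macrophages, had a log2 difference of -0.18 ± 0.44. MAP3K7, or TAK1, the shared activator of p38, JNK and NF-kB, was at 0.14 ± 0.15, with an interval from -0.17 to 0.44. MAP3K5, the redox-sensitive kinase ASK1, was at -0.06 ± 0.14 and MAP3K1 at 0.01 ± 0.26.

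The remaining upper-tier genes were MAP3K2 at 0.19 ± 0.17, MAP3K3 at -0.11 ± 0.46 and MAP3K4 at 0.07 ± 0.21. MAP3K2 and MAP3K3 feed the ERK5 branch, and MAP3K4 is activated by GADD45 proteins. MAP4K3 was 1.18-fold higher in deltaP by its mean, with 0.5 and 0.47 in pairs 1 and 2 and -0.27 in pair 3. MAP4K4, which signals to JNK, was at 0.15, 0.26 and -0.63. MAP3K13, MAP3K15, MAP3K19, MAP3K20 and MAP4K5 did not pass the filter.

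The dual-specificity phosphatases varied more between pairs than the kinases. Of the 12 tested DUSP genes 9 were lower and 3 higher by their mean, and the class median was -0.28 log2 units. In pair 3 the count was 11 of 12 lower (91.7%), against 54.2% of all genes in that pair, and in pair 2 it was 4 of 12 (33.3%), against 46.1%. The class medians were -0.16, 0.06 and -0.58 in pairs 1, 2 and 3. The count of lower genes was 11 of 12 without pair 1, 10 of 12 without pair 2 and 7 of 12 without pair 3, with medians of -0.22, -0.43 and -0.09.

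**Figure D3:**
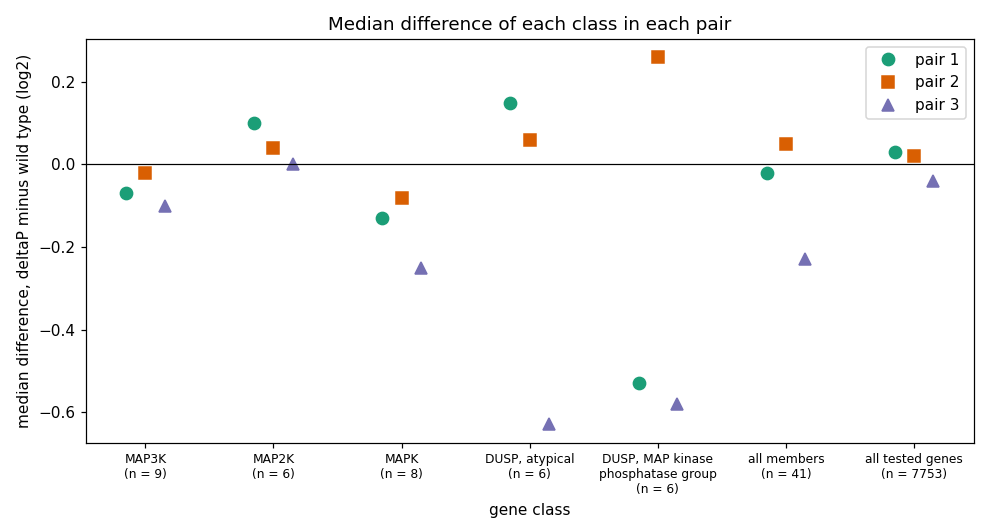
Median log2 difference, deltaP minus wild type (vertical axis), of each class in pairs 1, 2 and 3, with the number of tested genes under each name. The MAP3K, MAP2K and MAPK medians lie between -0.25 and 0.1. In pair 3 the medians are -0.63 for the atypical DUSP genes and -0.58 for the MAP kinase phosphatase group, which has -0.53 in pair 1 and 0.26 in pair 2.

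DUSP5, a nuclear phosphatase specific for ERK and induced by ERK signalling in mammals, had the lowest mean of the class. Its values were 6.46, 6.43 and 6.98 on the deltaP arrays and 7.54, 7.58 and 7.03 on the wild type arrays. All 3 pairs were lower in deltaP, but the arrays of pair 3 were nearly level. The pair differences of -1.08, -1.15 and -0.05 average -0.76 ± 0.62, a 1.69-fold lower level in deltaP (limma adjusted p = 0.441). It was the one DUSP gene with an unadjusted p under 0.05, which it missed when no filter was applied. With the mean of its 2 probe sets, one of them too dim to be tested, its difference was -0.41 (limma adjusted p = 0.52) and missed it too.

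DUSP1 and DUSP4 are the other nuclear, inducible phosphatases that were tested. DUSP1, an immediate early gene that restrains p38 and JNK in activated macrophages, had values of 6.22, 6.27 and 5.66 on the deltaP arrays and 6.28, 6.23 and 6.84 on the wild type arrays. Pairs 1 and 2 were level and the whole difference lay in pair 3, at -1.18. DUSP4 had -0.81, 0.48 and -0.52 by its brightest probe set, a mean of -0.28 ± 0.68. Its second probe set, equally bright, was at -1.17, -0.1 and -0.94, with a mean of -0.74 and an unadjusted p under 0.05 (limma adjusted p = 0.48 over all probe sets). The estimate for DUSP4 thus depends on which probe set stands for it.

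Among the cytoplasmic phosphatases that act on ERK, DUSP6 is a feedback gene whose transcript is often read as a gauge of ERK output. Its values were 7.1, 7.97 and 7.35 on the deltaP arrays and 8.24, 7.37 and 8 on the wild type arrays, which overlap. DUSP6 was lower in pairs 1 and 3 and higher in pair 2, with a mean of -0.39 ± 0.9 (limma adjusted p = 0.749). DUSP7 was higher in pairs 1 and 2, at 0.61 and 0.87, and lower in pair 3, at -0.94. The interval of DUSP6, from -1.24 to 0.45, and that of DUSP7, from -0.76 to 1.12, both reach past 2-fold.

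The T cell receptor component gene CD3D had -1.17, 1.07 and -1.63 in the pairs. The same order of signs, lower, higher and lower, was found in 12 of 41 members (29.3%), against 13.3% of all genes. Among the 12 were DUSP1, DUSP3, DUSP4, DUSP6 and MAPK8. Differences close to 0 were counted too, as in MAPKAPK2, with -0.15, 0.17 and -0.04. The count was made after the values were seen. CD3E had 0.41, 2.52 and -2.19. These were the 2 of 8 lymphocyte markers that passed the filter, while CD4, CD8A, CD79B, LCK, PAX5 and ZAP70 did not. The summed level of the list lay between 9.63 and 11 log2 units on the deltaP arrays and between 9.88 and 11.24 on the wild type arrays. The globin genes HBA1 and HBAD had 1.76, -0.04 and -2.94 and 2.91, 0.29 and -2.65 in the pairs, and their summed level lay between 5.53 and 8.1 on the deltaP arrays and between 5.81 and 8.33 on the wild type arrays. The part of these cells, and of the control RNA shift in pair 3, in the phosphatase values was not tested. In such bulk samples fewer cells of a type and less RNA per cell cannot be told apart.

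DUSP10 was the only gene tested in the subgroup of phosphatases that act on JNK and p38. Its values were 7.7, 7.67 and 7.72 on the deltaP arrays and 7.95, 7.99 and 7.93 on the wild type arrays. The difference of -0.26 ± 0.06 was small and alike in all 3 pairs, with an interval from -0.65 to 0.13 (limma adjusted p = 0.64). DUSP8 and DUSP16, of the same subgroup, did not pass the filter.

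The atypical DUSP genes lack the kinase-binding domain of the classical group, and some act on other substrates. DUSP22, a regulator of JNK and T cell receptor signalling, had -0.45, -0.08 and -0.31 in the pairs, a mean of -0.28 ± 0.19 (limma adjusted p = 0.541). A second, dimmer DUSP22 probe set was at -0.86, -0.02 and 0.66, a mean of -0.07. DUSP3, or VHR, a small phosphatase of ERK and JNK, was at -0.68, 0.08 and -0.98, a mean of -0.53 ± 0.55 (limma adjusted p = 0.553). DUSP14 had 0.3, -0.16 and -1.07 and DUSP23 had -0.01, 0.48 and -0.96, so both were far lower only in pair 3. DUSP12 was higher in all pairs, at 0.21 ± 0.12, and DUSP19 was at 0.06 ± 0.28. DUSP13, DUSP15, DUSP21, DUSP26, DUSP27, DUSP28 and DUSP29 did not pass the filter.

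The median SD of the 3 pair differences was 0.65 log2 units for the 12 DUSP genes, 0.83 for the 3 genes with further letters in the symbol, 0.26 for the 26 kinases and 0.27 for all genes. A comparison at like brightness was made after the values were seen. The 11 DUSP genes other than DUSP22 had mean log2 values from 5.33 to 7.9 and a median SD of 0.68, against 0.37 for the 2147 tested genes in that range, and 8 of the 11 lay above that median. These are descriptions of 3 pairs and carry no test.

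**Figure D4:**
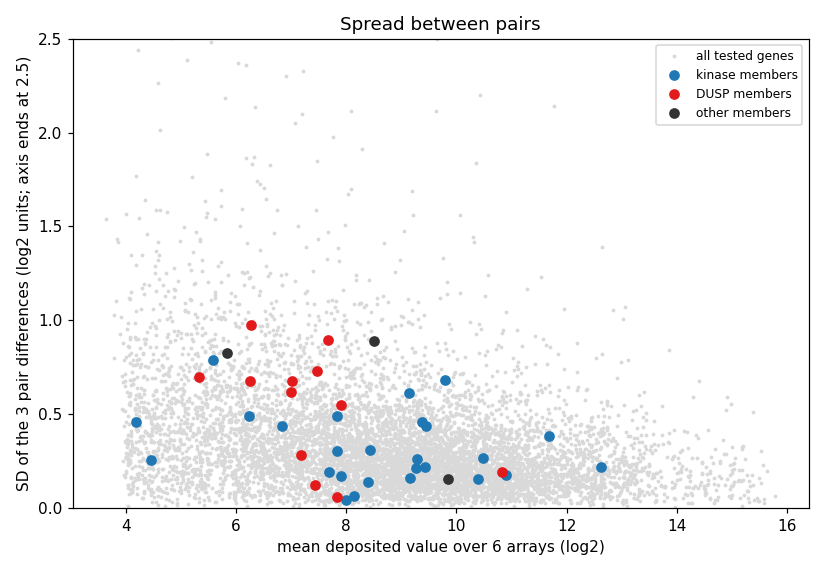
SD of the 3 pair differences (log2 units, vertical axis) against the mean deposited log2 value over 6 arrays (horizontal axis) for all tested genes in grey, with kinase members, DUSP members and other members coloured. The vertical axis ends at 2.5 and a few grey points lie above it. Most DUSP genes sit between 0.5 and 1, while DUSP10, DUSP12, DUSP19 and DUSP22 lie under 0.3.

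By the brightest probe set of each gene, the differences of more than 2-fold within a single pair were all in one direction. Of the 41 tested members, 8 (19.5%) were lower in deltaP by more than 1 log2 unit in at least 1 pair and 0 were higher. Among all genes 8.07% were lower and 5.91% higher by that measure, which was chosen after the values were seen. The 8 genes were DUSP1, DUSP5, DUSP6, DUSP14, MAP2K6, MAPK8, MAPK11 and MAPK8IP3, of which MAP2K6 passed the filter only through its wild type values. Pair 3 held 5 of them, pair 1 held 2 and pair 2 held 2, with DUSP5 in both of these. Among all genes 2.64%, 1.46% and 5.49% were lower by as much in pairs 1, 2 and 3, and 2.64%, 1.52% and 2.88% higher.

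Of the 3 tested genes with further letters in the symbol, MAPK8IP3, the JNK scaffold JIP3, was at -0.32, 0.08 and -1.63, a mean of -0.62 ± 0.89. Its second, dimmer probe set was at -0.48, 1.14 and 0.02, and was thus more than 2-fold higher in deltaP in pair 2. MAPK1IP1L was higher in all pairs, at 0.19 ± 0.15, and DUSP11RC1I was at -0.11 ± 0.83. MAPK8IP1, MAP3K7CL and DUSP22AL did not pass the filter. Over the whole family, 25 tested genes had more than 1 tested probe set, and these had the same sign in 11 genes and both signs in 14. Of the 77 tested probe sets of the family, 5 (6.49%) had an unadjusted p under 0.05, and 0 passed the adjusted threshold in limma. Among all 16199 tested probe sets, with those of several symbols or none kept in, 9.26% had an unadjusted p under 0.05.

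Around the cascade, 6 lists of other pathway genes gave no call either. In the list of RAS, RAF and adaptor genes, 11 of 21 tested genes were lower and 2 (9.52%) had an unadjusted p under 0.05, both lower, against 9.92% of all genes. SPRED1, an inhibitor of RAS to RAF signalling and an ERK feedback gene, had pair differences of -0.66, -0.28 and -0.67 and was 1.45-fold lower in deltaP (limma adjusted p = 0.278). HRAS was at -0.82, -0.15 and -0.31 (limma adjusted p = 0.491). The list median was -0.03.

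Scaffold and docking genes had a median of -0.05, with 14 of 25 lower. PAK1, a kinase that primes RAF and MEK, was 1.51-fold lower in deltaP, at -0.6, -0.8 and -0.38 (limma adjusted p = 0.3). PEBP1, the RAF kinase inhibitor protein, was 1.24-fold higher, at 0.32, 0.22 and 0.38 (limma adjusted p = 0.426). In a list of other phosphatases and related genes, not all of which act on MAP kinases, 7 of 12 tested genes were lower, with a median of -0.09. PTPN5 was 1.91-fold lower by its mean, with -1.09, -0.06 and -1.65, and PTPN12 1.24-fold lower (limma adjusted p = 0.401 and 0.487).

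Further down, the 6 tested downstream kinase genes split evenly, 3 higher and 3 lower, with a median of 0.05. RPS6KA2, encoding the ERK-activated kinase RSK3, was 1.93-fold higher in deltaP, at 1.57, 0.83 and 0.44 (limma adjusted p = 0.328). MKNK1, a kinase of the translation factor eIF4E, was 1.43-fold lower (limma adjusted p = 0.498). Among 18 tested substrate genes 10 were lower, with a median of -0.03. The lowest adjusted p of the 6 lists was that of ZFP36L2, an RNA-binding protein of the tristetraprolin family, with -0.45, -0.64 and -0.56 (limma adjusted p = 0.244). MEF2A and PLA2G4A were 1.4-fold and 1.24-fold lower (limma adjusted p = 0.331 and 0.445).

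Genes known to respond to ERK had a median of -0.16, with 7 of 13 tested genes lower and 16 more below the filter. Their mean differences ran from -0.76 to 0.74. By more than 1 log2 unit in at least 1 pair, 2 of the 13 were lower and 1 was higher. KLF10 was at -0.95, -0.35 and -0.6 (limma adjusted p = 0.345) and KLF6 was higher, at 0.66, 0.33 and 0.49 (limma adjusted p = 0.373). ETV5, an ETS factor often grouped with DUSP6 as ERK output, was at -1.37, -0.4 and -0.52 (limma adjusted p = 0.49). Its deltaP mean was 3.54, and only its 3 wild type values were over the filter value of 4. ETV5 thus entered the test through the group in which it was higher. Over the 94 tested genes of the 6 lists, 14 had an unadjusted p under 0.05. Of these, 11 were lower, ETV5 among them, and 3 higher in deltaP. These are 11.7% lower and 3.19% higher, against 6.02% and 3.9% of all genes, and 0 of the 14 passed the adjusted threshold in limma. The lists were chosen with earlier results of these data known, and the shares carry no test.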

How the data were processed

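The authors deposited a table of log2 values for 38535 probe sets on 6 arrays. Affymetrix arrays are named in the labels' protocols, and Partek 6.4 and GCRMA in the submitters' processing notes. The removal of the replicate number from the values is not described in the sources used here. Same-numbered samples deviated from their group means with a correlation of -1 in each pair, which equal pair means force.

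Symbols came from the platform annotation of 2016; all 61 member symbols matched a RefSeq gene table of assembly GRCg7b. MAP3K9 and MAP4K3 each stand for 2 gene identifiers and were kept as 1 gene each. Genes were kept with a log2 value over 4 on at least 3 arrays. Two-sided tests came from limma 3.58.1 under R 4.3.3 (lmFit, then eBayes with its trend option), blocked on replicate number, with Benjamini-Hochberg adjustment over 7753 genes, and the scripts were tested on simulated data. Control probe sets were left out of every fit. Probe sets listing several symbols or none were left out of the gene-level fits. The fit of every probe set on its own kept them. List entries were matched by symbol (168 of 231).

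Members and lists were chosen with earlier results of these data known. The rule for named genes took members with an unadjusted p under 0.05, the 5 smallest p-values among higher and among lower members, the JNK and p38 kinases, the MAP2K genes, DUSP1, DUSP4, DUSP5, DUSP6, the brightest member of each class and, per other list, up to 4 genes with the smallest p. Other members with values were added after these were seen. Alternatives changed the filter, the probe set rule, the block, the trend, the centring or the replicates used.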

Additional observations from a re-analysis of the deposited data

How the results depend on the processing

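The count of members past the adjusted threshold was 0 under all 12 alternatives. Without a replicate block, which counts residual degrees of freedom that these values do not hold, limma gave 12 members an unadjusted p under 0.05 (27.3% of all genes did) in place of 3, and called 8.23% of all genes but no member; the lowest adjusted p of a member was then 0.0515, for MAP2K6. Of the 14 genes named from the other pathway lists, 10 passed the adjusted threshold in that fit. All 14 had been picked for an unadjusted p under 0.05 in the blocked fit, so this count cannot be set against all genes. With every probe set on its own the count at an unadjusted p under 0.05 was 5, and it ran from 0 to 5 when 1 replicate number was left out. No filter put 15 of 21 DUSP genes lower in place of 9 of 12, because 9 dim genes entered; this count was chosen after seeing the data. Without 1 replicate the median of the MAPK class ran from -0.34 to -0.18 that of MAP3K from -0.06 to 0.12 and that of DUSP from -0.43 to -0.09.

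With the mean of all probe sets of a gene, 6 members changed sign: DUSP11RC1I was at 0.02, MAP2K5 at -0.03, MAP3K1 at -0.1, MAPK14 at 0.07, MAPK1IP1L at -0.03 and MAPKAPK2 at 0.02. Without 1 replicate, 18 of 41 members changed sign at least once, with log2 differences in the ranges DUSP11RC1I (-0.51 to 0.32), DUSP14 (-0.62 to 0.07), DUSP19 (-0.09 to 0.19), DUSP23 (-0.48 to 0.23), DUSP7 (-0.16 to 0.74), MAP2K4 (-0.03 to 0.03), MAP2K5 (-0.08 to 0.18), MAP3K1 (-0.14 to 0.12), MAP3K3 (-0.33 to 0.13), MAP3K4 (-0.05 to 0.16), MAP3K5 (-0.13 to 0.01), MAP4K4 (-0.24 to 0.21), MAPK11 (-0.63 to 0.04), MAPK12 (-0.43 to 0.17), MAPK13 (-0.42 to 0.06), MAPK14 (-0.21 to 0), MAPK9 (-0.06 to 0.14) and MAPKAPK2 (-0.1 to 0.06). The other 23 kept their sign, but DUSP1 (-0.62 to -0.01), DUSP4 (-0.66 to -0.02) and DUSP6 (-0.89 to -0.02) came close to 0. The ranges were -0.96 to -0.52 for MAP2K6, 0.31 to 0.6 for MAP2K2, -1.11 to -0.56 for DUSP5 and -1.13 to -0.34 for MAPK8. The cause of these changes was not tested.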
